A study of Mus musculus with 6 samples.

Results

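The ErbB genes of the study comprise the 4 ErbB receptors (*Egfr*, *Erbb2*, *Erbb3* and *Erbb4*), 5 of their ligands (*Nrg1*, *Hbegf*, *Areg*, *Ereg* and *Btc*) and the feedback inhibitor *Errfi1*. They were chosen by name, with the difference between corticosterone and vehicle in these libraries already known. Of the 10 genes, 9 had a row among the 24016 genes of the deposited table, and *Erbb4* was not analysed here. The libraries are from wild-type MC3T3-E1 subclone 4 cells, a clonal preosteoblast line from mouse calvaria, so that all cultures share 1 clone. Cells were differentiated for 6 days with β-glycerophosphate at 10 mM and ascorbic acid at 50 μg/ml. For 24 h they then received corticosterone at 100 nM (n = 3 libraries) or vehicle (n = 3 libraries). Corticosterone is the chief natural glucocorticoid in mice. The labels also give 10 nM calcitriol during treatment without saying separately that the vehicle cultures received it, and state the passage as 4 to 10 under growth but as 6 to 12 elsewhere. They call the replicates biological without saying how the cultures were separated, so the errors below measure the spread between these libraries.

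ErbB receptors are receptor tyrosine kinases of the cell surface that pair after binding a ligand of the epidermal growth factor (EGF) family and phosphorylate each other, which engages the Ras-ERK and PI3K-Akt pathways. *Erbb2* encodes a receptor with no known ligand that serves as the preferred partner of the others, while the protein of *Erbb3* binds neuregulins but has little kinase activity of its own and signals through its partner. *Errfi1* encodes MIG6, a cytoplasmic protein that is induced by ErbB signalling and by glucocorticoids, binds the kinase domain of activated ErbB receptors and blocks it. In the osteoblast lineage, EGFR signalling is known to favour proliferation of progenitors over their maturation.

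The deposited values are named FPKM but are read counts divided by 1 size factor for each library, and so are termed normalized counts. The libraries held 16020401 to 25638645 reads assigned to genes, and the 3 corticosterone libraries were the shallowest. With all libraries thinned to the same number of reads, the calls of *Errfi1*, *Erbb3* and *Nrg1* below were kept. A gene with 3 reads, taken as the floor, has a normalized count of 2.32 to 3.84. The treatment labels were checked with *Tsc22d3*, *Fkbp5* and *Per1*, known glucocorticoid targets, which were 2.82-fold, 5.52-fold and 4.04-fold higher with corticosterone, without overlap between the groups. Of 9 osteoblast markers, 8 were above the floor in every library and 1, *Phex*, was not. A gene was called with an adjusted p under 0.05 in limma's test over all genes and a log2 fold change over 1 in size. The study states the same cut-offs but applied them to DESeq2, not limma. For the ErbB genes these calls are given as a description, without p-values, because the same contrast was known when they were chosen.

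*Errfi1* was 2.21-fold higher with corticosterone, and per kilobase of exon it had the highest level of the ErbB genes in both treatments. It (ENSMUSG00000028967, chromosome 4, 150853919 to 150868892, plus strand of GRCm38) had normalized counts of 1429.6, 1739 and 1263 with vehicle and 3294, 3299 and 3209.8 with corticosterone. The corticosterone libraries lay close together and all of them were above the highest vehicle library. In bulk RNA, more cells that express a gene and more RNA per cell cannot be told apart, here and below. The means were 1477 ± 242 with vehicle and 3268 ± 50.3 with corticosterone (SD, n = 3 each), and the log2 fold change was 1.16 (SE 0.08). At least 1221 reads stood behind each value. The difference was past the threshold in all 21 alternative analyses, between 1.05 and 1.28 on the log2 scale with 1 library left out. The alternatives include a fit without a filter, which repeats the main fit because the filter removed no gene.

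RefSeq promoter sequences (GRCm38.p6) were found for 6 of the 10 ErbB genes, with 2 start sites for *Errfi1*. Those of *Errfi1* and *Egfr* are shown because this inhibitor and the receptor it binds differed in opposite directions. Each stretch ends at the base before the start site and leaves out annotated exons, so the *Errfi1* stretch, at the downstream one of its start sites (chr4:150854950-150855069, plus strand), has 120 bases and that of *Egfr* (chr11:16751953-16752202, plus strand) has 250. Capitals mark GC boxes, GGGCGG on either strand, 2 that overlap in *Errfi1* and 1 in *Egfr*.
Errfi1: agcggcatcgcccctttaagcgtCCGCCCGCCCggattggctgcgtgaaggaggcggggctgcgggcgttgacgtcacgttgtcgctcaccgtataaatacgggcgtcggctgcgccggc
Egfr: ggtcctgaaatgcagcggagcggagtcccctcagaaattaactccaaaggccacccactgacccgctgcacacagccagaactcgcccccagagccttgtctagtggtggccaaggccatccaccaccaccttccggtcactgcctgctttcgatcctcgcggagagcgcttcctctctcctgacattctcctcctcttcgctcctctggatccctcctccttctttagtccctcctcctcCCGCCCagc
The palindromic glucocorticoid response element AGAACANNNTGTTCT was searched on both strands in the 300 bases from 250 before to 50 after each start. The element was found in none of the 7 promoters of these 6 genes, and in 0.00913% of all 32851 RefSeq promoters of the same length. Its arm AGAACA, a 6-base sequence counted on either strand, was in none of the 7 promoters and in 19.0% of all. The AP-1 site TGANTCA was in none of the 7 and in 7.81% of all. The GC box was in 1 of the 2 promoters of *Errfi1*, with 3 matches, in that of *Egfr* with 1 match and in that of *Areg* with 2, against 35.7% of all promoters. These are matches of letters in short windows and say nothing of sites elsewhere in the genes.

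Among the receptors, *Erbb3* was nearly unread with vehicle and clearly read with corticosterone, *Egfr* was lower with corticosterone, and *Erbb2* differed little. *Erbb3* (ENSMUSG00000018166, chromosome 10, 128567523 to 128589652, minus strand) had 6, 0 and 1 reads with vehicle against 120, 95 and 104 with corticosterone. These are normalized counts of 4.87, 0 and 1.03 against 128, 105 and 133, so every corticosterone library was far above the floor while only the first vehicle library was above it. The 0 reads of the second allow a normalized count of up to 2.32. The ratio of the read rates was 60.8, with an exact 95% interval of 29.2 to 152 that covers counting error only. The log2 fold change was 7.20 (SE 0.96) with the pseudocount of 0.1 and depended on it, with 5.74 for a pseudocount of 1 and 8.36 for 0.01. It was past the threshold in limma and in edgeR and DESeq2 on the recovered reads. It was not past it without a variance trend or with a robust prior variance. Leaving out vehicle library 3 (7.43) or corticosterone library 1 (7.16), 2 (7.31) or 3 (7.14) likewise ended the limma call. None of the 31-base stretches of *Erbb3* transcripts was shared with another gene.

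*Egfr* (ENSMUSG00000020122, chromosome 11, 16752203 to 16918158, plus strand), the receptor of EGF itself and of most of the measured ligands, had normalized counts of 2386, 2018 and 2211 with vehicle and 1454, 1575 and 1581 with corticosterone. The lowest vehicle library was above the highest corticosterone library. The mean was 2205 ± 184 with vehicle and 1537 ± 71.7 with corticosterone (SD, n = 3 each), 30.3% lower, with a log2 fold change of -0.52 (SE 0.06). Its adjusted p was under 0.05 in limma and in all 21 alternatives, and its fold change stayed under the threshold in each. *Erbb2* (ENSMUSG00000062312, chromosome 11, 98412470 to 98437716, plus strand) had 993, 999.5 and 922 with vehicle and 975, 928 and 969.7 with corticosterone. Both groups overlapped, with a log2 fold change of -0.02 (SE 0.06).

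**Figure D1:**
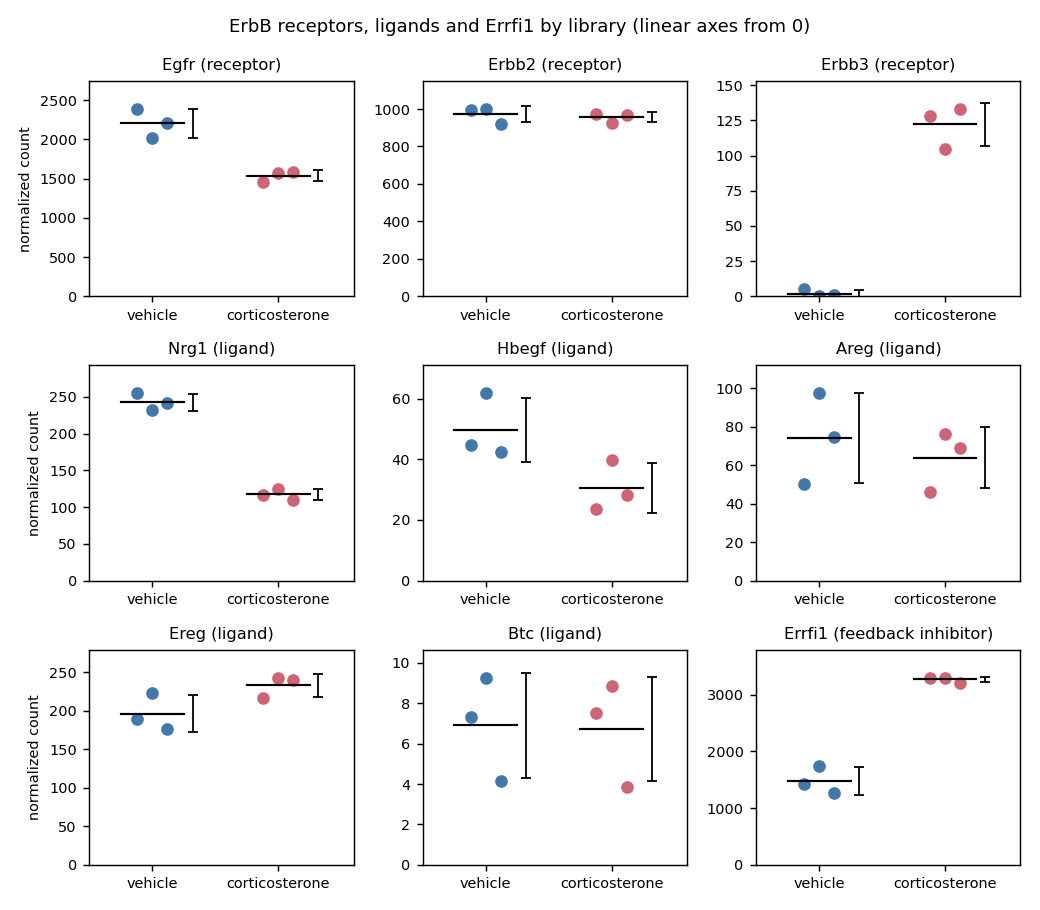
Normalized counts (linear axes from 0) of the 9 ErbB genes by treatment. Each point is 1 library (3 per treatment), the horizontal line is the mean and the bar beside it is the SD. *Errfi1* and *Erbb3* lie wholly higher, and *Egfr*, *Nrg1* and *Hbegf* wholly lower, in the corticosterone libraries, whereas the groups overlap in *Erbb2*, *Areg*, *Ereg* and *Btc*.

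The ligands did not share a direction: *Nrg1* was lower with corticosterone past the threshold, *Hbegf* was lower without passing it, and *Areg*, *Ereg* and *Btc* overlapped between the groups. *Nrg1* (ENSMUSG00000062991, chromosome 8, 31814551 to 32884029, minus strand) encodes neuregulin 1, the ligand of the ERBB3 and ERBB4 proteins. Its normalized counts were 255, 232 and 241 with vehicle and 117, 125 and 110.0 with corticosterone. The corticosterone libraries were all under the lowest vehicle library, with means of 242 ± 11.6 and 117 ± 7.40 (SD, n = 3 each), 51.7% lower. Its log2 fold change of -1.05 (SE 0.11) is only just over the threshold in size. It was past the threshold in all 21 alternatives, from -1.10 to -1.004 with 1 library left out. An antisense gene, *Gm26578*, covers 4.66% of the exon bases of *Nrg1*, and reads from it cannot be told apart where the counting ignored strand, which is not stated.

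*Hbegf* (ENSMUSG00000024486, chromosome 18, 36504927 to 36515805, minus strand), which encodes heparin-binding EGF-like growth factor, a ligand of EGFR and ERBB4, had 44.6, 61.7 and 42.4 with vehicle and 23.6, 39.8 and 28.1 with corticosterone. The groups did not overlap, but the highest corticosterone library was close to the lowest vehicle library, and the values rest on 22 to 80 reads. The log2 fold change was -0.71 (SE 0.27), and the adjusted p was under 0.05 in 4 of 21 alternatives but not in the main limma test.

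*Ereg*, *Areg* and *Btc* encode epiregulin, amphiregulin and betacellulin, ligands of EGFR, and lie in 1 cluster on chromosome 5 with the epigen gene *Epgn*. In GRCm38 the cluster runs from *Epgn* (91027464 to 91035215) through *Ereg* (91074622 to 91093646) and *Areg* (91139599 to 91148432) to *Btc* (91357261 to 91402994). *Ereg* had 189, 223 and 177 with vehicle and 216, 243 and 241 with corticosterone, with a log2 fold change of 0.25 (SE 0.11). Its second vehicle library was above the lowest corticosterone library. *Areg* had 50.3, 97.2 and 74.5 with vehicle and 46.0, 76.2 and 69.1 with corticosterone, a log2 fold change of -0.20 (SE 0.24). In both treatments the first library of *Areg* was the lowest and the second the highest, and the spread within a treatment exceeded the difference between them. *Btc* had only 3 to 12 reads per library, with normalized counts of 6.90 ± 2.59 and 6.72 ± 2.59 (SD, n = 3 each). At that depth the ratio of read rates had an exact 95% interval of 0.494 to 1.83, which covers counting error only. The reads thus do not tell a change of *Btc* within it from no change. An antisense gene, *Gm19610*, covers 3.42% of the exon bases of *Ereg*.

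In all, 2 of the 9 ErbB genes were past the threshold and higher (*Erbb3*, *Errfi1*), where 1.38% of all genes were, and 1 was lower (*Nrg1*), where 1.4% of all genes were. In either direction these are 3 of 9 genes, against 2.78% of all genes. With the adjusted p alone, 2 were higher (8.49% of all genes) and 2 lower (8.2%, and 16.7% in either direction). The groups did not overlap in 2 higher genes (14.7% of all genes) and 3 lower genes (14.9%, and 29.6% in either direction). The median log2 fold change was -0.05 over the 9 genes and -0.01 over all genes. Since the contrast was known when the genes were chosen, these shares are a description.

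**Figure D2:**
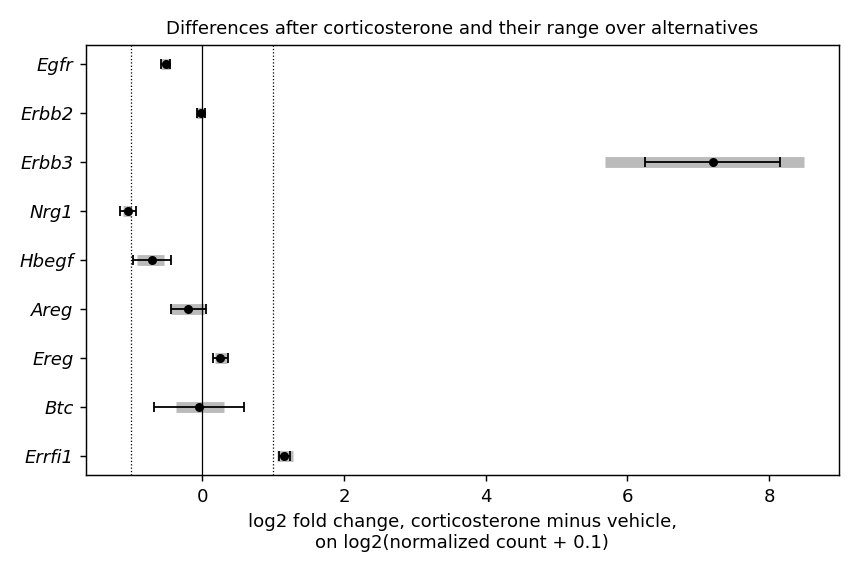
Log2 fold change of each of the 9 ErbB genes, corticosterone minus vehicle, on log2(normalized count + 0.1). Points and bars are the limma estimate and its standard error, and grey bands span the lowest and highest value over the alternatives. Dotted lines mark the threshold of 1 in either direction, and *Errfi1* and *Nrg1* lie just outside it. The band of *Erbb3* is the widest, from 5.68 to 8.50, and those of *Erbb2*, *Areg* and *Btc* hold values of both signs.

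Levels were next compared between genes within a treatment, per kilobase of annotated exon, since long transcripts yield more reads. With vehicle the order was *Errfi1*, *Egfr*, *Erbb2*, *Areg*, *Ereg*, *Nrg1*, *Hbegf*, *Btc* and *Erbb3*. The level of *Errfi1* was 412 ± 67.4 normalized counts per kilobase (SD, n = 3), above 90.1% of the genes of the table. *Egfr* had 195 ± 16.3 and *Erbb2* 186 ± 8.27, levels that overlapped. *Areg* (60.9 ± 19.3) and *Ereg* (47.6 ± 5.80) also overlapped each other. *Nrg1* had 23.4 ± 1.12, *Hbegf* 10.3 ± 2.19, *Btc* 1.53 ± 0.572 and *Erbb3* 0.327 ± 0.426 normalized counts per kilobase. Each of these 4 was below the gene before it in the order in every vehicle library, except that *Nrg1* overlapped *Ereg* when the longest coding transcript was used as length.

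With corticosterone the order was *Errfi1*, *Erbb2*, *Egfr*, *Ereg*, *Areg*, *Erbb3*, *Nrg1*, *Hbegf* and *Btc*, and only *Ereg* and *Areg* overlapped as neighbours. *Errfi1* reached 912 ± 14.0 normalized counts per kilobase, above 95.8% of the genes. *Erbb2* (184 ± 4.99) was above *Egfr* (136 ± 6.33) in each corticosterone library. *Erbb3*, which was last with vehicle, had 20.3 ± 2.51 with corticosterone, above *Nrg1* at 11.3 ± 0.715. This last pair depends on the length used: per kilobase of the longest coding transcript, *Nrg1* had 21.6 and overlapped *Erbb3*. Which transcripts of *Nrg1*, a gene with many isoforms, were read is not given by the table.

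**Figure D3:**
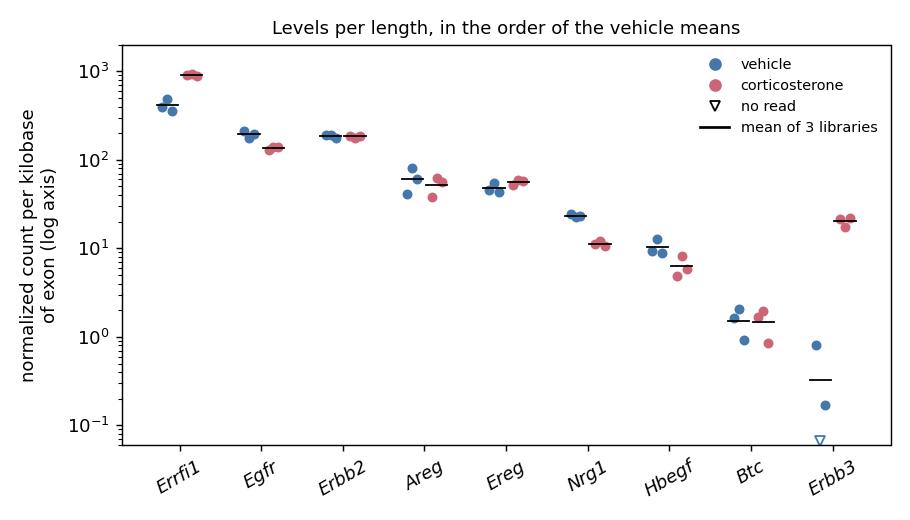
Normalized count per kilobase of exon (log axis) of the 9 ErbB genes, ordered by the vehicle mean. Points are libraries, lines are means of 3 libraries and the open triangle is the vehicle library without a read of *Erbb3*; *Errfi1* is highest in both treatments, and *Erbb3* is lowest with vehicle but above *Nrg1*, *Hbegf* and *Btc* with corticosterone.

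Shares within a library do not depend on how libraries were scaled. *Egfr* made up 52.4, 48.2 and 52.4% of the summed receptor level per kilobase with vehicle and 38.1, 41.6 and 40.1% with corticosterone. *Erbb2* made up 47.4 to 51.8% with vehicle and 53.2 to 55.6% with corticosterone. *Erbb3* made up at most 0.201% with vehicle and 5.21 to 6.36% with corticosterone. The shares of *Egfr* and *Erbb2* overlapped with vehicle, while *Erbb2* held more than *Egfr* in every corticosterone library. The summed receptor level was 381 ± 17.8 normalized counts per kilobase with vehicle and 339.8 ± 7.08 with corticosterone (SD, n = 3 each).

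Among the 5 ligands, *Ereg* held 31.2 to 37.3% of the summed ligand level per kilobase with vehicle and 40.9 to 48.5% with corticosterone, and *Nrg1* 13.1 to 20.1% and 8.03 to 10.4%. The sum itself overlapped between the treatments, with 144 ± 24.99 and 128 ± 18.3 (SD, n = 3 each). The ligand shares depend on the length used. Per kilobase of the longest coding transcript the vehicle mean of *Nrg1* was 44.8, against 23.4 per kilobase of merged exon. For *Ereg* it was 47.6 with either length. A share also moves with the other ligands, and the values of *Ereg* itself overlapped between the groups. The ratio of *Errfi1* to *Egfr*, inhibitor to receptor transcript per kilobase, was 1.89, 2.72 and 1.81 with vehicle and 7.16, 6.62 and 6.42 with corticosterone. The mean ratio was thus 3.15 times as high with corticosterone, and the lowest corticosterone library was above the highest vehicle library. Both follow from the higher *Errfi1* and lower *Egfr* values given above and are no further result.

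**Figure D4:**
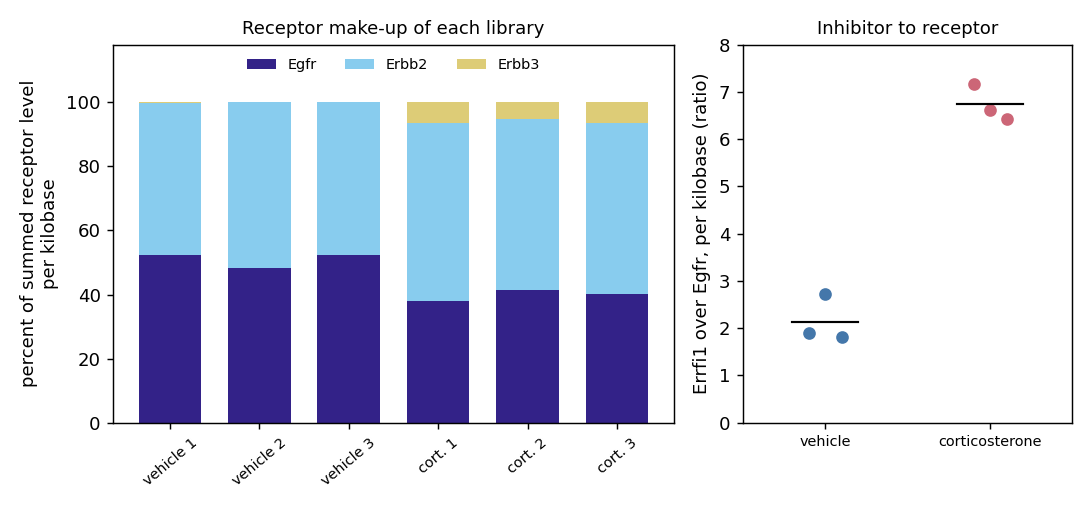
Left, percent of the summed receptor level per kilobase held by *Egfr*, *Erbb2* and *Erbb3* in each library; right, the ratio of *Errfi1* to *Egfr* per kilobase, with points for libraries and lines for means of 3. *Erbb3* takes 5.21 to 6.36% in the corticosterone libraries, and the ratio is 1.81 to 2.72 with vehicle and 6.42 to 7.16 with corticosterone. The separation of the ratio follows from that of *Errfi1* and *Egfr*.

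The other genes of the pathway were counted from 5 lists written from their known roles, which leave out the ErbB genes above. The lists too were chosen with earlier results of these data known, so their counts and adjusted p-values are a description. Of the 71 genes listed, 69 had a row. Of these, 1 was past the threshold and higher (1.38% of all genes) and 2 were lower (1.4% of all genes). With the limma adjusted p alone, 13 rose (8.49% of all genes) and 15 fell (8.2% of all genes). A mean normalized count of at least 10 was reached by 65 of the 69 genes but by only 13880 of all 24016. The shares thus compare sets of unlike read depth. In single genes tested here, a two-sided exact permutation test of 3 against 3 libraries cannot give a p under 0.1, the value of every gene without overlap.

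Both pathway genes that fell past the threshold were in the list of 10 ERK output genes, transcripts known to follow the activity of the ERK pathway. Past the threshold 2 fell (1.4% of all genes) and 0 rose (1.38% of all genes). With the adjusted p alone 5 fell (8.2% of all genes), 1 rose (8.49% of all genes) and 4 did not pass. The median log2 fold change was -0.24, against -0.01 over all genes. *Spry4*, which encodes an inhibitor of receptor tyrosine kinase signalling, fell from 74.1 ± 24.6 to 31.99 ± 6.53 (mean ± SD, n = 3), a log2 fold change of -1.18 (SE 0.26, adjusted p of limma = 0.0035). The libraries had 55.1, 102 and 65.2 with vehicle and 24.6, 34.2 and 37.1 with corticosterone, from 23 to 132 reads. The groups did not overlap. Leaving out any 1 library raised its adjusted p over 0.05, to between 0.055 and 0.12, with log2 fold changes from -0.93 to -1.37. Over the other alternatives limma's adjusted p was at most 0.11, without a variance trend. *Dusp4*, a phosphatase of ERK, fell from 86.0 ± 13.9 to 42.5 ± 2.09 (mean ± SD, n = 3), with -1.005 (SE 0.19, adjusted p of limma = 0.001). Its libraries had 79.5, 102 and 76.5 with vehicle and 40.7, 42.0 and 44.8 with corticosterone, without overlap. Its adjusted p stayed under 0.05 in all alternatives, but its fold change is at the threshold and was under it without vehicle library 2 (-0.88), corticosterone library 1 (-0.97) or corticosterone library 2 (-0.997).

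*Etv5* and *Etv4*, transcription factors induced by ERK, fell by less, *Etv5* from 1525 ± 196 to 898 ± 19.3 (mean ± SD, n = 3) with a log2 fold change of -0.76 (SE 0.07, adjusted p of limma = 1.0e-06) and *Etv4* with -0.36 (SE 0.09, adjusted p of limma = 0.0079). Leaving out any 1 library raised the adjusted p of *Etv4* over 0.05, to between 0.12 and 0.2. Of the 31-base stretches of *Etv5*, 30.3% also lie in transcripts of another gene, chiefly *Gm4798*, so part of its reads could be shared. *Dusp6*, another ERK phosphatase, fell with -0.41 (SE 0.06, adjusted p of limma = 6.8e-05), and its adjusted p was over 0.05 without corticosterone library 1 (0.055). *Epha4*, an ephrin receptor, was the 1 gene of the list that rose, with 0.44 (SE 0.05, adjusted p of limma = 4.8e-06). The log2 fold changes were -0.06 for *Spry2*, -0.12 for *Phlda1*, -0.07 for *Ccnd1* and 0.07 for *Epha2*, which did not pass the test.

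Of 9 genes of ligand shedding, the release of membrane-bound ligands by proteases, 3 rose and 1 fell with an adjusted p under 0.05. Over all genes, 8.49% rose and 8.2% fell by that measure. None of the 9 was past the fold threshold. *Adam17*, which encodes the main sheddase of EGFR ligands, rose from 1425 ± 80.5 to 2013 ± 50.3 (mean ± SD, n = 3), a log2 fold change of 0.50 (SE 0.05, adjusted p of limma = 2.5e-06). *Adam9* rose from 1659 ± 49.0 to 2404 ± 48.6 (mean ± SD, n = 3), with 0.54 (SE 0.05, adjusted p of limma = 2.6e-07). *Timp3*, an inhibitor of ADAM17, fell from 8539.7 ± 356 to 5839 ± 246 (mean ± SD, n = 3), with -0.55 (SE 0.04, adjusted p of limma = 1.2e-07). Other genes share 21.9% of the 31-base stretches of *Timp3*, so part of its reads could be shared. *Adam12* rose with 0.19 (SE 0.04, adjusted p of limma = 0.0058). The groups of *Adam17*, *Adam9* and *Timp3* did not overlap and their adjusted p stayed under 0.05 in every alternative, whereas that of *Adam12* did so in 14 of 21 and was over 0.05 without vehicle library 3 (0.072), corticosterone library 1 (0.097), corticosterone library 2 (0.1) or corticosterone library 3 (0.057).

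Of 26 genes of adaptors and signalling, 5 rose (8.49% of all genes) and 5 fell (8.2% of all genes) with the adjusted p. All were within a log2 fold change of 1. The largest rise was that of *Plcg1*, phospholipase C gamma, with 0.49 (SE 0.04, adjusted p of limma = 2.8e-07), followed by *Pik3cb*, a catalytic subunit of PI3 kinase, with 0.41 (SE 0.09, adjusted p of limma = 0.0032). The largest falls were those of *Pik3r3*, a regulatory subunit of PI3 kinase, with -0.39 (SE 0.05, adjusted p of limma = 4.0e-05), and of the kinase gene *Src* with -0.27 (SE 0.05, adjusted p of limma = 0.0011). Other genes share 23.7% of the 31-base stretches of *Pik3r3*. Another regulatory subunit gene of PI3 kinase, *Pik3r1*, went the other way and rose with 0.40 (SE 0.05, adjusted p of limma = 7.0e-06). Of 20 genes of receptor inhibition and turnover, 3 rose and 4 fell with the adjusted p, against the same shares of all genes. Here the largest were the falls of *Sh3kbp1*, an adaptor in receptor endocytosis, with -0.46 (SE 0.05, adjusted p of limma = 3.8e-06), and of *Socs5*, which promotes EGFR degradation, with -0.36 (SE 0.06, adjusted p of limma = 2.1e-04). Without vehicle library 1 (0.058), corticosterone library 1 (0.058) or corticosterone library 2 (0.051), the adjusted p of *Socs5* was over 0.05. The median log2 fold change of each list was -0.01, as over all genes.

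Of 6 other ErbB ligands, 4 had a row, and 1 was past the threshold and higher (1.38% of all genes). This was *Tgfa*, transforming growth factor alpha, with 0 reads in each vehicle library and 3, 2 and 3 reads in the corticosterone libraries (adjusted p of limma = 0.015). Since both groups are at or under the floor, no fold is given; the gene was not tested by edgeR, which left it out for its few reads, and received no adjusted p from DESeq2. *Nrg4* had 6.49, 4.63 and 3.10 normalized counts with vehicle and 13.9, 8.84 and 11.5 with corticosterone, from 3 to 13 reads, and did not pass the test (adjusted p of limma = 0.17). *Egf* had 42.9 ± 2.94 and 50.9 ± 3.21 (SD, n = 3 each) and did not pass it either (adjusted p of limma = 0.52). *Epgn*, at the start of the chromosome 5 cluster, had at most 2 reads in a library. The median of the 4 genes, 1.42, thus rests on genes of few reads and on the pseudocount.

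**Figure D5:**
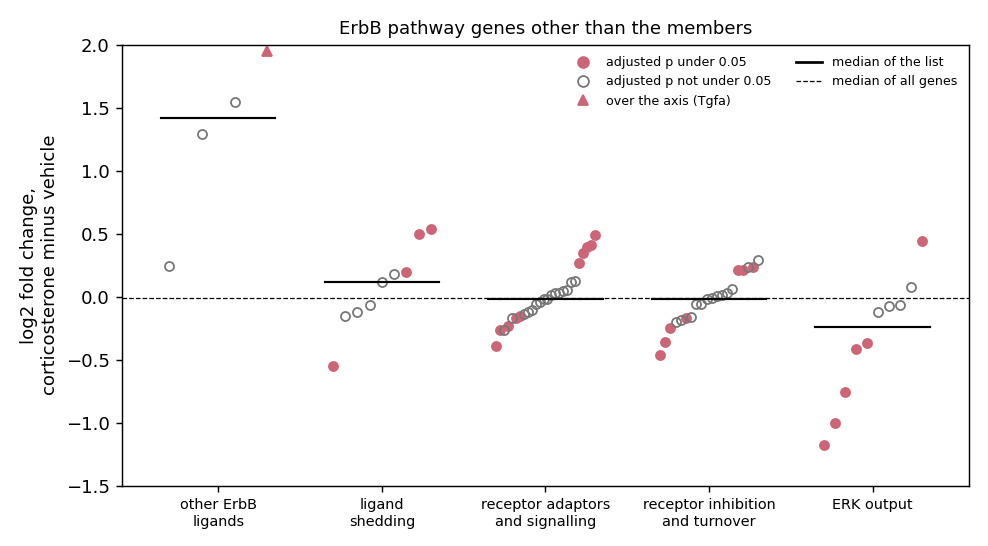
Log2 fold change, corticosterone minus vehicle, of each gene of the 5 pathway lists. Filled points have a limma adjusted p under 0.05, open points do not, solid lines are list medians and the dashed line is the median of all genes (-0.01). The triangle is *Tgfa*, which lies above the axis. The lowest points are *Spry4* and *Dusp4* among the ERK output genes.

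Among genes with a mean normalized count of at least 10, those whose log2 levels over the 6 libraries lay nearest to *Errfi1*, after each gene was centred on its own mean, were *Tnfrsf14*, *1110002E22Rik* and *Nt5e*. Their root mean square differences from *Errfi1* were 0.0529, 0.0598 and 0.0645 on the log2 scale. They include *Nt5e*, which encodes the ecto-enzyme CD73, with 225 ± 37.6 normalized counts with vehicle and 497 ± 31.1 with corticosterone (SD, n = 3 each). For *Erbb3* the nearest genes were *Scel*, *Sult1a1* and *Lcn2*, at differences of 1.54, 1.65 and 1.67. The vehicle libraries of *Erbb3* spread from 0 to 6 reads, and no gene was as near to it as the first 3 were to *Errfi1*.

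*Erbb3* is known for its expression in epithelia, Schwann cells and melanocytes, so markers of these cells were read beside it. Of 7 epithelial markers, 5 had a row, of which *Krt8* and *Krt19* were at or under the floor in every library and *Cdh1* and *Krt5* had at most 6 and 5 reads. *Krt14* had 278 ± 54.9 with vehicle and 142 ± 11.7 with corticosterone (SD, n = 3 each), and the summed epithelial level was 234 to 352 with vehicle and 132 to 156 with corticosterone. Of 6 markers of Schwann cells and melanocytes, 5 had a row and 4 were above the floor in every library. Their sum was 771 to 905 with vehicle and 531 to 638 with corticosterone, most of it *S100b*, which chondrocytes and other mesenchymal cells also express. Both sums were thus lower in every library in which *Erbb3* was higher. Of 4 blood cell markers, 2 had a row, with a sum of 46.5 to 62.4 and 43.5 to 47.5, and of 3 endothelial markers, 1 had a row, at 0 to 9 reads. Of the 9 osteoblast markers, *Runx2*, *Sp7*, *Ibsp* and *Bglap* fell past the threshold (1.4% of all genes) and 0 rose past it. With limma's adjusted p alone, *Col1a1* (log2 fold change -0.15) and *Alpl* (-0.41) also fell and *Spp1* rose (0.23), while *Dmp1* (0.05) and *Phex* (1.02) did not pass.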

How the data were processed

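RNA of 6 cultures was sequenced commercially on an Illumina platform. The values deposited by the authors are a signal of each gene in each library, named FPKM; the submitters' processing notes name the build mm10, while the aligner, counter and use of strand are not given in the sources used here. Every value was a whole multiple of 1 step per library (within 0.05 of a read for 100% of values), so reads per gene were recovered; 16020401 to 25638645 reads per library were counted.

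Values were tested as log2(value + 0.1) by limma 3.58.1 in R 4.3.3, with an empirical Bayes variance that follows a trend on the mean, over all 24016 genes, since a filter on a mean of at least 0.1 removed none, with Benjamini-Hochberg adjustment and the study's threshold. The design had assumed FPKM and was kept. Count tests on the recovered reads (edgeR 4.0.16, DESeq2 1.42.0) were alternatives, as were pseudocounts, filters, scalings, prior variances, the replicate block, thinning and leaving out each library. Among the alternatives, the fit without a filter is identical to the main fit, so its agreement is no separate check. The fits were tested on simulated data.

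The ErbB genes and the pathway lists were chosen with earlier results of these data known. Of each list, the genes past the threshold and the 2 with the largest change at an adjusted p under 0.05 may be named, as may any other gene of the lists, the 3 genes nearest in pattern to *Errfi1* and to *Erbb3*, the cell type markers and 3 glucocorticoid targets. *Gm26578* and *Gm19610* are named because they overlap a gene described, and *Gm4798* because it shares 31-base stretches with *Etv5*. These *Gm* genes were chosen after the data were seen. Symbols, coordinates and exon lengths are from GENCODE M21 (GRCm38), which named 23983 of the genes, and promoters from RefSeq (GRCm38.p6). Shared 31-base stretches were counted on either strand. Levels per kilobase are normalized counts divided by the merged exon length. Python 3.11.15 with pandas 2.3.3 served for tables and matplotlib 3.10.9 for figures.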

Additional observations from a re-analysis of the deposited data

How the results depend on the processing

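*Errfi1* and *Nrg1* kept their direction and their side of the threshold in all 21 alternatives, and *Egfr* kept its direction and an adjusted p under 0.05 in all 21. *Erbb3* kept its direction in all 21 and was past the threshold in 15. Of the 9 ErbB genes, 2 were higher past the threshold, but 1 without a variance trend, 1 with a robust prior variance and between 1 and 2 with 1 library left out; *Erbb3* was the gene lost each time, and the cause was not tested. For the pathway lists the 1 higher gene, *Tgfa*, became 0 with a mean of at least 1 or of at least 10, with edgeR on the reads, with and without the replicate block, and with DESeq2; the 2 lower genes became 1 with a pseudocount of 1, without a variance trend, with quantile normalization or with thinned reads, and between 0 and 1 with 1 library left out. In these, *Spry4* lost its adjusted p or *Dusp4* its fold change. Over all genes the counts stayed within 1.5 times the main 331 higher and 337 lower, from 269 to 400 higher and from 245 to 502 lower. No scaling moved the median log2 fold change of all genes beyond -0.08. In the order of levels per kilobase with corticosterone, 2 genes changed place with the longest coding transcript as length, *Erbb3* and *Nrg1*, and between 0 and 2 with 1 library left out, where *Ereg* and *Areg* changed place without the first corticosterone library; with vehicle none did.

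Both treatments carry replicate numbers 1 to 3, but no label says that a number marks a pair. Over 13880 genes, the deviations of same-numbered libraries from the mean of their treatment had correlations of -0.0438, 0.00136 and 0.0234, and not every library correlated best with its own number. In the fit with a replicate block, 297 genes passed the threshold upward and 294 downward, and the block changed no call of the ErbB genes (2 higher, 1 lower) and no count of the pathway lists past the threshold.

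Depth limits *Btc* and the vehicle level of *Erbb3*. Intervals from reads cover counting error only, since they pool the libraries of a treatment, treat reads as independent and leave out the spread between libraries.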
